A study of Mus musculus with 3 samples.

Results

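Strong single-nucleotide intron crosslink positions are single listed bases inside introns of protein-coding genes that carry a high deposited count. The members were chosen by the deposited values themselves: positions labelled intron and protein coding with a count of 5 or more, leaving out Cdk8, Cmss1, Camk1d and Lars2, whose 201 such positions were set aside. This left 2651 members in 907 genes, of 309048 intron positions of protein-coding genes and 462392 listed positions in all. The positions come from individual-nucleotide resolution crosslinking and immunoprecipitation (iCLIP), in which ultraviolet light joins a protein to the RNA it touches and reverse transcription stops at the joined base. Thymi of strain C57BL/6JBabr mice gave total naive thymocytes, which were irradiated intact with 300 mJ/cm2 and from which RNA was recovered with a Brf1/2 antibody. The libraries were 1 from DCKO cells, which lack Zfp36l1 and Zfp36l2 through a conditional knockout, and 2 from WT cells, prepared in independent experiments. Neither the labels nor the notes used here give the Cre line, the ages or how many mice made up a library.

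The counts of all libraries used stand in a single list without a library column, and the sources used here do not say which libraries entered it. DCKO and WT could therefore not be compared, no value below has a replicate error, and no test was run. Ranges in parentheses after percentages are 95% Wilson intervals. They reflect counting error alone and treat neighbouring positions as independent, which they are not. The whole list summed to 814493 counts and its intron positions without the 4 left-out genes to 487018. Thymocyte identity was clear in the list: all 10 thymocyte markers had listed positions, with summed counts from 11 to 3281 and a total of 10728. The 6 B cell markers summed to 10, the 6 myeloid markers to 22, the 6 erythroid markers to 8, the 5 NK and innate markers to 3, the 6 thymic epithelial markers to 12 and the 6 stromal and endothelial markers to 15. Cd79a, Ebf1, Csf1r, Cd14, Adgre1, Klf1, Epor, Klrb1c, Gzmb, Eomes, Foxn1, Col3a1, Cdh5 and Kdr were at 0, and no marker of those lists held a member.

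ZFP36L1 and ZFP36L2 belong to the tristetraprolin family of tandem zinc finger proteins, which bind AU-rich elements, in DNA letters TATTTA and its extension TTATTTATT, and recruit deadenylases that shorten the poly(A) tail. They are best known for binding 3′ untranslated regions (3′ UTRs) of mRNAs in the cytoplasm, and in developing T cells they limit proliferation. The proteins also shuttle through the nucleus, where introns are present in unspliced transcripts.

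The 12 genes with the strongest members show what these positions look like, and 11 of their windows are printed here because they carry the main patterns. Each is 41 nt long, written 5′ to 3′ on the strand of the gene, with the member as its central base. Capitals mark TATTTA and any TTTA copies that follow it directly. The first set holds the windows with TATTTA.
Ccnd3: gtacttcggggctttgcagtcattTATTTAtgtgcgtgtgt
Themis: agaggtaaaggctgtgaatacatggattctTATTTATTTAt
Trip12: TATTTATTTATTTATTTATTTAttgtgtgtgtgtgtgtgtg
Cd4: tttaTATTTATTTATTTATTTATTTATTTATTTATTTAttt
Hdac7: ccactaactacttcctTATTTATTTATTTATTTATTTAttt
Il6st: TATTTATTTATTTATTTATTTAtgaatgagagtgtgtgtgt

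On GRCm38 these windows were Ccnd3 at chr17:47547237-47547277 (plus strand), Themis at chr10:28814190-28814230 (plus strand) and Trip12 at chr1:84746921-84746961 (minus strand). The others were Cd4 at chr6:124868386-124868426 (minus strand), Hdac7 at chr15:97842868-97842908 (minus strand) and Il6st at chr13:112493302-112493342 (plus strand). The member had a count of 105 in Ccnd3, 84 in Themis, 72 in Trip12, 61 in Cd4, 57 in Hdac7 and 46 in Il6st. In Trip12, Cd4, Hdac7 and Il6st the member stands inside a tandem repeat of TTTA. In Themis 2 copies of TTTA close the window downstream of the member, and in Ccnd3 a single TATTTA lies a few bases downstream and is followed by TG-rich sequence.

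The windows without TATTTA among the strongest are rich in other pyrimidine patterns, and no letter is in capitals.
Aptx: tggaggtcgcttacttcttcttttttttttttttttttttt
Eya3: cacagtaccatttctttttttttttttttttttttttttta
Rbfox3: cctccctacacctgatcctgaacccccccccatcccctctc
Gm20696: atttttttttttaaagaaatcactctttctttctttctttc
Mad1l1: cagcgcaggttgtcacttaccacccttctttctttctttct

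They lay at Aptx at chr4:40692114-40692154 (minus strand), Eya3 at chr4:132682375-132682415 (plus strand) and Rbfox3 at chr11:118774462-118774502 (minus strand), and at Gm20696 at chr6:99417514-99417554 (minus strand) and Mad1l1 at chr5:140135231-140135271 (minus strand). The counts were 61 in Aptx, on the first T of a long T run, 60 in Eya3, a few bases into such a run, and 60 in Rbfox3, beside a run of C. In Gm20696 and Mad1l1 the members had counts of 53 and 51 and stood several bases upstream of copies of CTTT, and in Gm20696 a T run also lay upstream of the member. Camk4, with a member of count 67, completes the 12 genes, and its window is not shown.

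The next genes in order of count whose strongest member had TATTTA within 20 nt show how the hexamer can lie on the member or downstream of it.
Zfp148: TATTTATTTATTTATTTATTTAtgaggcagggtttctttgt
Rps6kb1: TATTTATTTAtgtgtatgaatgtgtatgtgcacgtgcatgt
Arhgap30: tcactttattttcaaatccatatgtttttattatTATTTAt
Stat5b: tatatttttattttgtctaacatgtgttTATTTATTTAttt
Cnot2: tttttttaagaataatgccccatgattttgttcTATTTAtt
Runx1: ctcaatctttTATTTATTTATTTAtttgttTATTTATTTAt

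These windows were Zfp148 at chr16:33398806-33398846 (plus strand), Rps6kb1 at chr11:86541752-86541792 (minus strand) and Arhgap30 at chr1:171398983-171399023 (plus strand), and Stat5b at chr11:100841541-100841581 (minus strand), Cnot2 at chr10:116521284-116521324 (minus strand) and Runx1 at chr16:92772954-92772994 (minus strand). Their members had counts of 41 in Zfp148, 36 in Rps6kb1, 36 in Arhgap30, 35 in Stat5b, 34 in Cnot2 and 31 in Runx1. In Zfp148 the member stood in the last copy of the repeat, and in Rps6kb1 the repeat ended upstream of the member. In Arhgap30, Stat5b and Cnot2 the first TATTTA began several bases downstream. In Runx1 the member stood in the last copy of a repeat, and a further repeat followed downstream.

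The members made up 0.861% of the 308031 intron positions outside the 4 left-out genes and held 22781 counts, or 4.68% of the counts there. Both numbers follow from the threshold. The median count was 6 and the highest 105, with 2089 members from 5 to 9, 430 from 10 to 19 and 132 of 20 or more. Just inside the threshold stood 689 positions with a count of 5 in 443 genes, and just outside it 3847 with a count of 4 in 1653 genes. The median sum of counts within 15 nt was 17 around the positions with 5 and 9 around those with 4. Low counts were unevenly spaced: 158963 positions had a count of 1, 137824 had 2, 4746 had 3 and 3847 had 4, and count 6 (750 positions) was more common than count 5. The sources used here do not say what a count of 1 stands for. Members were spread over both strands, 1321 on plus and 1330 on minus, and over 20 chromosomes.

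The AU-rich core hexamer was more frequent near members than near weaker positions. TATTTA lay within 20 nt, on the strand of the gene, of 1369 of 2651 members, 51.6% (95% interval 49.7 to 53.5), against 10.7% (10.6 to 10.8) of all intron positions and 6.77% (6.65 to 6.90) of those with a count of 1. The share was 13.3% at a count of 2, 22.4% at 3, 37.5% at 4 and 61.4% (57.3 to 65.3) at 10 or more. Positions with a count of 1 in the same genes as the members gave 7.16% (6.96 to 7.37). Neighbouring members can share the same hexamer. With 1 member per cluster, where members at most 50 nt apart form a cluster, TATTTA was near 36.5% (34.0 to 39.1). The longer TTATTTATT was near 43.1% (41.2 to 44.97) of members, against 5.46% of all intron positions. The reverse complement TAAATA was near 0.566% (0.343 to 0.932) of members, against 1.60% of all intron positions. Of 189 hexamers found near at least 2% of members, ATTTAT and TATTTA had the highest ratio of member windows to windows with a count of 1, 7.66 and 7.62.

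**Figure D1:**
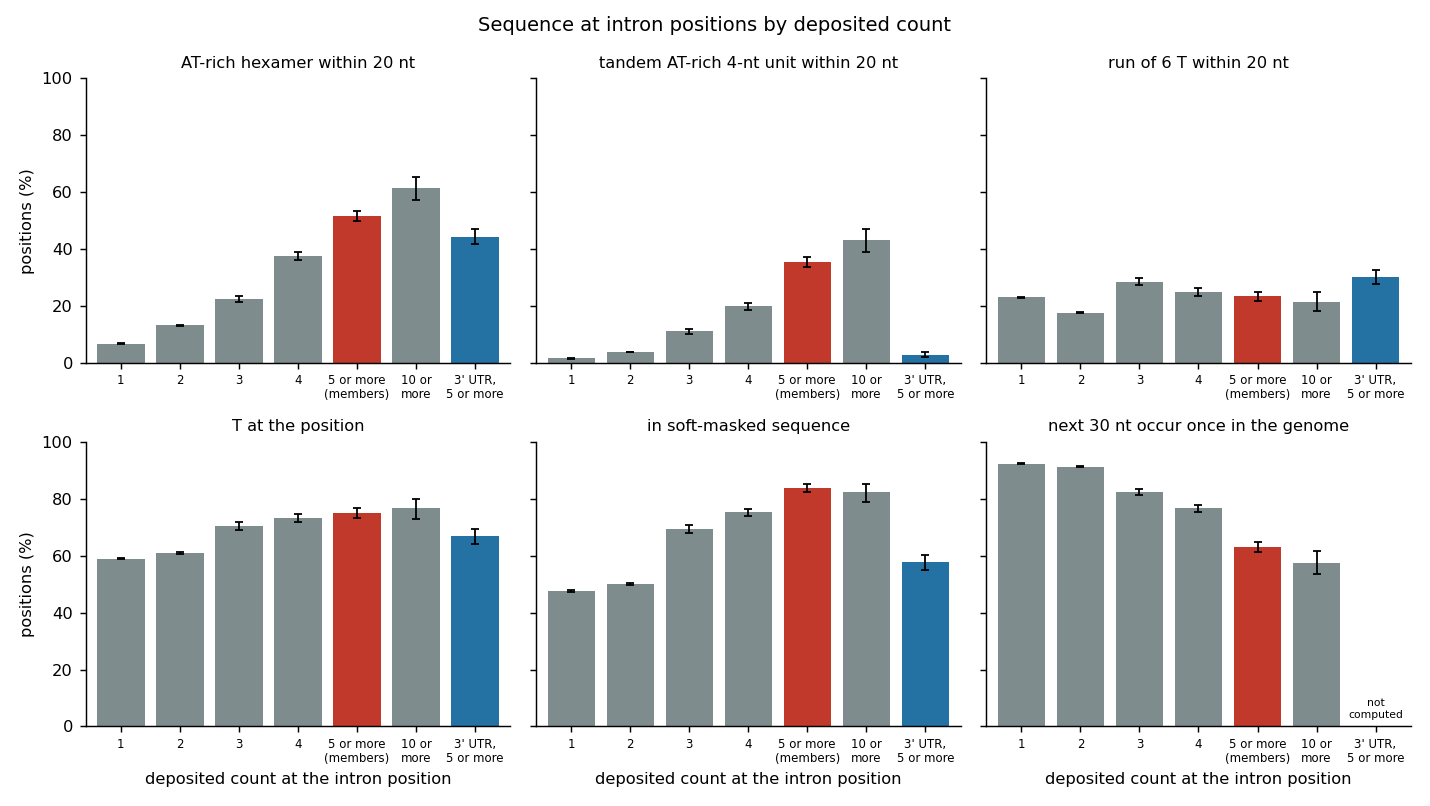
Percentage of positions (vertical axis) with 6 properties by the deposited count of the intron position (horizontal axis); red bars are the members, grey bars other intron positions or the members of 10 or more, blue bars 3′ UTR positions of 5 or more, and error bars 95% Wilson intervals. The AT-rich hexamer is TATTTA and the tandem unit 3 or more copies of TTTA; both climb with the count, to 51.6% and 35.5% in members, while the share near a run of 6 T does not. The share of 3′ UTR positions whose next 30 nt occur once was not computed.

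Members differed from 3′ UTR positions of the same count in how the hexamer was arranged. Of the 1358 positions labelled 3′ UTR with a count of 5 or more, 44.3% (41.7 to 47.0) had TATTTA within 20 nt, against 51.6% (49.7 to 53.5) of members. This order did not hold in other sets. With 1 position per cluster, where positions at most 50 nt apart form a cluster, the share was 36.5% (34.0 to 39.1) of 1328 member clusters and 40.2% (36.2 to 44.3) of 557 3′ UTR clusters, and outside soft-masked repeats it was 20.4% (16.9 to 24.5) of members and 47.8% (43.8 to 51.9) of 3′ UTR positions. At least 3 tandem copies of TTTA, however, lay within 20 nt of 940 members, 35.5% (33.7 to 37.3), against 2.87% (2.11 to 3.902) of the 3′ UTR positions and 3.24% (3.18 to 3.31) of all intron positions. With 1 position per cluster it was near 19.4% (17.4 to 21.6) of member clusters, against 2.51% (1.50 to 4.17) of 3′ UTR clusters, with 1 member per gene near 22.3% of members, and outside soft-masked sequence near 0.939% (0.366 to 2.39) of members, against 0.174% (0.0307 to 0.978) of 3′ UTR positions. The masking itself covered 99.6% of the members near tandem TTTA, so the set outside it can hold few of them. TATTTA without such a repeat within 20 nt was the reverse, with 16.2% (14.8 to 17.6) of members against 41.5% (38.9 to 44.1) of the 3′ UTR positions. Members near tandem repeats came from 256 genes and held 8604 counts, and those near other TATTTA came from 239 genes with 3812 counts.

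Sorting each remaining member into the first pattern it matched gave 288 members (10.9%) near a run of 8 T, 161 (6.07%) near 4 copies of TG or GT and 121 (4.56%) near 2 copies of CTTT or 3 of TTCT. A further 712 members (26.9%) matched none of these. At a count of 1 the same classes held 12.8%, 4.53%, 1.28% and 74.6% of positions. A run of 6 T was near 23.3% (21.8 to 25.0) of members and 20.7% (20.6 to 20.9) of all intron positions. TGTGTG was near 12.6% (11.4 to 13.9) of members and 8.71% (8.61 to 8.81) of all intron positions. AATAAA, the polyadenylation signal, was near 0.830% (0.549 to 1.25) of members and 1.37% of all intron positions.

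The listed base was a thymidine at 75.1% (73.4 to 76.7) of members, against 60.4% of all intron positions, 59.0% (58.7 to 59.2) of those with a count of 1 and 66.9% of the 3′ UTR positions. Cytidine stood at 13.9% of members, adenosine at 6.68% and guanosine at 4.34%, against 15.2%, 9.68% and 16.1% at a count of 1. The 41 nt around members were 56.8% T, 18.7% A, 11.7% C and 12.7% G, and around positions with a count of 1 they were 42.9% T, 20.5% A, 15.2% C and 21.4% G. Thymidine along the member window alternated, with 75.1% at the member, 55.2% at the next base, 73.3% at the second and 74.9% at the fourth base downstream.

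**Figure D2:**
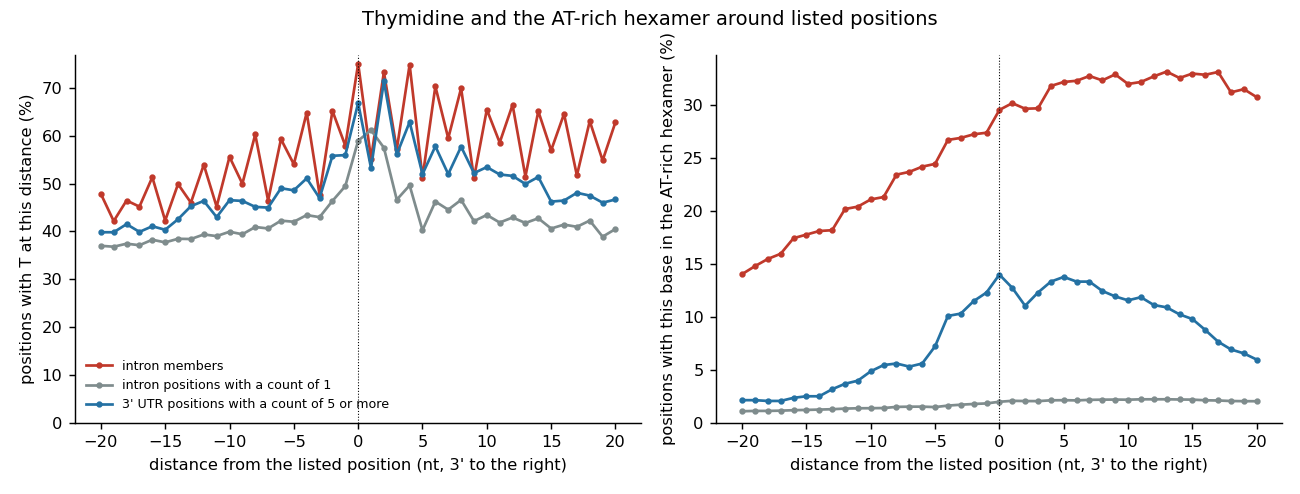
Percentage of positions with a T (left panel) or with a base inside TATTTA, the AT-rich hexamer (right panel), at each distance from the listed position, 3′ to the right; red is members, grey intron positions with a count of 1 and blue 3′ UTR positions of 5 or more. The hexamer covers the member itself in 29.5% of members and the base 8 nt downstream in 32.3%, and thymidine alternates along the member line, with 75.1% at the member and 55.2% at the next base.

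Coverage by TATTTA was higher downstream of members than upstream. The base 7 nt upstream lay inside the hexamer at 23.7% of members, the member itself at 29.5% and the base 8 nt downstream at 32.3%. Of 1190 members with at least 3 TTTA copies that reached within 20 nt, 753 (63.3%, 60.5 to 66.0) stood inside the repeat. Of the rest, 379 (31.8%, 29.3 to 34.6) stood upstream of it and 58 (4.87%, 3.79 to 6.25) downstream. The split is not symmetric by its definition. T bases directly after the last whole copy counted as inside, whereas a partial copy before the first counted as upstream. These 1190 include repeats that begin inside the window and end beyond it.

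Most members lay in sequence that is soft-masked in RefSeq's GRCm38.p6, the lower-case letters that mark interspersed and simple repeats. The share was 83.9% (82.5 to 85.3), against 49.7% (49.5 to 49.8) of all intron positions, 47.6% of those with a count of 1 and 57.7% (55.0 to 60.3) of the 3′ UTR positions. TATTTA lay near 57.6% (55.6 to 59.7) of the 2225 soft-masked members, against 10.3% (10.1 to 10.5) of soft-masked positions with a count of 1. Outside masked sequence the shares were 20.4% (16.9 to 24.5) of 426 members and 3.58% (3.46 to 3.71) of positions with a count of 1. Thymidine behaved otherwise: outside masked sequence it stood at 46.7% (42.0 to 51.5) of members, against 51.1% (50.8 to 51.4) of positions with a count of 1.

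Repeated sequence bears on where a read can be placed. The 30 nt downstream of the position occurred once in the genome, on either strand, for 63.2% (61.4 to 65.0) of members, against 92.4% at a count of 1 and 76.7% at a count of 4. The 30 nt had over 100 copies for 16.1% of members and 3.23% of all intron positions. With 50 nt, 2650 of 2651 members were unique. Reads were 100 nt long, per the labels, and part of each read is a barcode. The sources used here do not say how multiply mapping reads were treated, and its part in the counts was not tested. Among the 1676 members whose 30 nt were unique, 44.5% had TATTTA near and 24.5% the tandem repeat.

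The tandem repeat was then taken as the starting point, by scanning 748351 kb of annotated introns in the 10796 listed genes that matched GENCODE vM21 for every stretch of 3 or more TTTA copies. Reading in the direction of the gene, 372 of 19392 repeats had a member within 20 nt, 1.92% (1.73 to 2.12). The same repeat on the opposite strand, which is TAAA in the transcript, had a member in 0 of 11874 cases, 0%, which allows a share of up to 0.0253% (3 of 11874) or, by the upper end of the Wilson interval, 0.0323%. Any listed count was present at 20.2% of sense and 1.09% of antisense repeats. The share with a member grew with the number of copies, at 0.460% (0.355 to 0.595) for 3 copies, 2.25% (1.82 to 2.79) for 4 to 5, 6.40% (5.40 to 7.57) for 6 to 8, 7.98% (6.59 to 9.64) for 9 to 12 and 6.71% (3.69 to 11.9) for 13 or more. From 6 copies on the intervals overlap. The stretch searched ran from 20 nt before the repeat to 20 nt after it, so it was longer for more copies. The part of this in the growth was not tested.

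**Figure D3:**
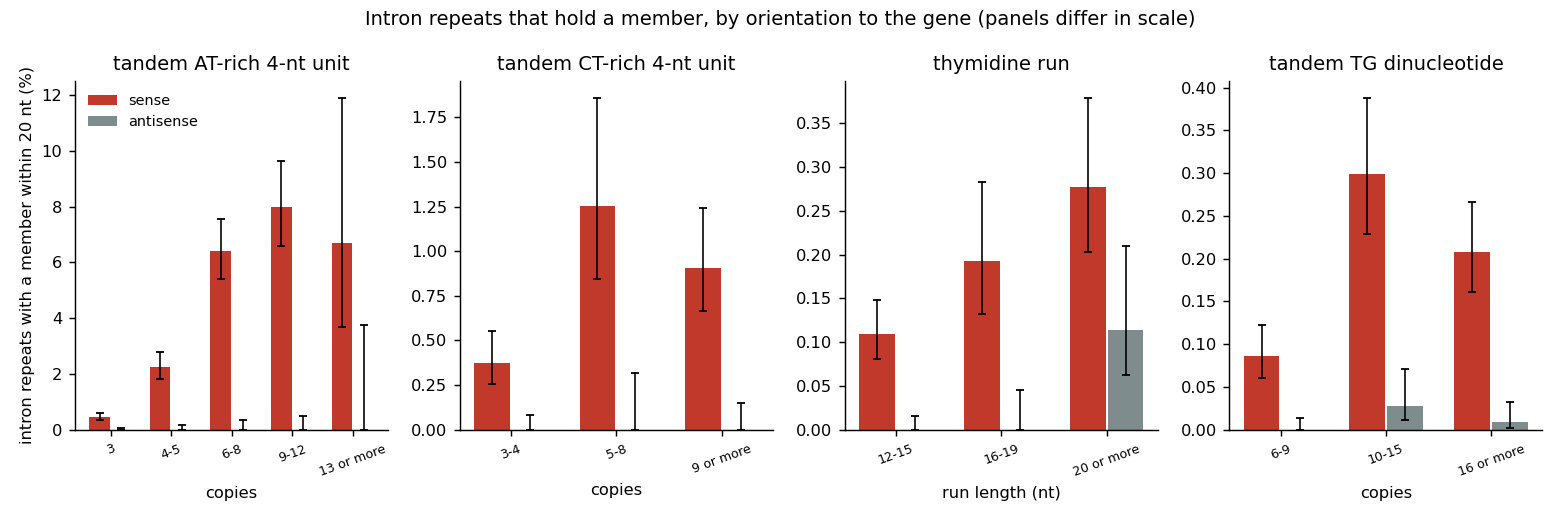
Percentage of intron repeats with a member within 20 nt (vertical axis, scales differ between panels) by repeat length, for repeats read in the direction of the gene (sense, red) and on the opposite strand (antisense, grey), with 95% Wilson intervals. The AT-rich unit is TTTA and the CT-rich unit CTTT; sense TTTA repeats reach 7.98% at 9 to 12 copies, and antisense ones stay at 0 in every length class.

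Over all lengths, T runs, TG repeats and CTTT repeats held members less often per repeat than TTTA, and again mainly in the sense direction. Runs of 12 or more T had a member at 0.163% (0.135 to 0.197) in sense and 0.0238% (0.0129 to 0.0438) in antisense. For runs of 20 or more T the shares were 0.278% (0.203 to 0.379) in sense and 0.114% (0.0621 to 0.210) in antisense. These 2 intervals overlap, and all 10 antisense runs with a member were of this length. For 6 or more TG copies the shares were 0.175% (0.149 to 0.206) in sense and 0.00922% (0.00423 to 0.0201) in antisense. For 3 or more CTTT copies they were 0.680% (0.552 to 0.838) in sense and 0% of 8572 in antisense, which allows up to 0.0350% (3 of 8572) or 0.0448% by the Wilson interval. Sense CTTT repeats of 3 to 4 copies, at 0.374% (0.253 to 0.551), overlapped TTTA repeats of 3 copies. Sense and antisense repeats are different loci, and the level of transcription of each gene was not measured.

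Within the TTTA repeat the members stood most often on 1 of the 4 bases. Of 733 members inside whole copies of a repeat of 3 or more TTTA, where each base makes up an equal share, 394 (53.8%, 50.1 to 57.3) stood on the third T, the one before the A. A further 173 (23.6%, 20.7 to 26.8) stood on the first T, 101 (13.8%, 11.5 to 16.5) on the second T and 65 (8.87%, 7.02 to 11.1) on the A. At a count of 1 the third T held 37.9% (35.4 to 40.4), at 4 it held 45.6% (41.5 to 49.8) and at 10 or more 63.9% (57.0 to 70.3). It held 56.1% (51.0 to 61.1) of plus-strand and 51.4% (46.3 to 56.5) of minus-strand members. Members near tandem repeats were most often 4 nt apart. Of 2956 pairs within 16 nt, 356 were 4 nt apart, 320 were 2 nt and 263 were 1 nt. A further 237 were 3 nt and 193 were 5 nt apart. Members near T runs showed no such step, and of their 522 pairs 114 were 1 nt apart, 83 were 2 nt, 63 were 3 nt and 51 were 4 nt apart.

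Among the loci with the most counts, Hdac7, Cd4 and Il6st show this step base by base. The loci of Camk4, Aptx and Wasf2, with summed counts of 474, 313 and 305, are not printed here. The following windows are 81 nt long and centred on the strongest member of each gene, and here capitals mark every base that is itself a member. Hdac7, Cd4 and Il6st are printed for the repeat, Eya3 for the T run and 1110001J03Rik for a tRNA gene.
Hdac7: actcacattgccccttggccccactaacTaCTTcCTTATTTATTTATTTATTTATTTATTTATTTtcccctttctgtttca
Cd4: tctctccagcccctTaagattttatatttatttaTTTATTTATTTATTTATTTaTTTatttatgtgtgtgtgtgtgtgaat
Il6st: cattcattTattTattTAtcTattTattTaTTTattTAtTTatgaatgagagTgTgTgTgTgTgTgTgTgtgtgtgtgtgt
Eya3: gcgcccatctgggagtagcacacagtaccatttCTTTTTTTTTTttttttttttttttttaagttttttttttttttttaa
1110001J03Rik: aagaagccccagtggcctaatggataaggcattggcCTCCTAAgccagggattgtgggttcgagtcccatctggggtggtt

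Hdac7 encodes a class IIa histone deacetylase that represses genes of thymocyte selection until it leaves the nucleus. Its window, chr15:97842848-97842928 on the minus strand, held 35 members with 745 counts in all. Along the repeat the counts peaked every 4 nt, with 30, 57, 45, 42, 48, 33 and 27 at 4 nt upstream of the strongest member, at it, and at 4, 8, 12, 16 and 20 nt downstream. The bases beside these peaks had lower counts, such as 21 and 22 beside the 57. A second series stood between them, with 23, 33, 19, 12, 38 and 38 at 2 nt upstream and 2, 6, 10, 14 and 18 nt downstream, and at 14 and 18 nt it was above the peaks of 33 and 27.

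Cd4 encodes the coreceptor for class II major histocompatibility complex molecules. Its window, chr6:124868366-124868446 on the minus strand, lay in an intron of 2379 nt, with the strongest member 540 nt from the intron's 3′ end, and it held 23 members with 447 counts. The peaks had 36, 61, 41, 28, 14 and 25 counts at 4 nt upstream of the strongest member, at it, and at 4, 8, 12 and 16 nt downstream. Between them stood 21, 37, 13, 9 and 9 counts at 2 nt upstream and 2, 6, 10 and 14 nt downstream. The 37 was above the peaks of 36, 28, 14 and 25. Il6st encodes gp130, the signalling chain of interleukin-6 type receptors, and its window chr13:112493282-112493362 on the plus strand held 23 members with 302 counts. Every 4 nt from 32 nt upstream up to the strongest member, the counts were 11, 6, 17, 24, 12, 10, 29, 35 and 46. Between them stood 6, 5, 7, 6 and 6 counts at 23, 10, 9, 3 and 1 nt upstream. After a gap of 11 nt without a member, the step changed to 2 nt on the T bases of a TG repeat, with counts from 6 to 13.

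**Figure D4:**
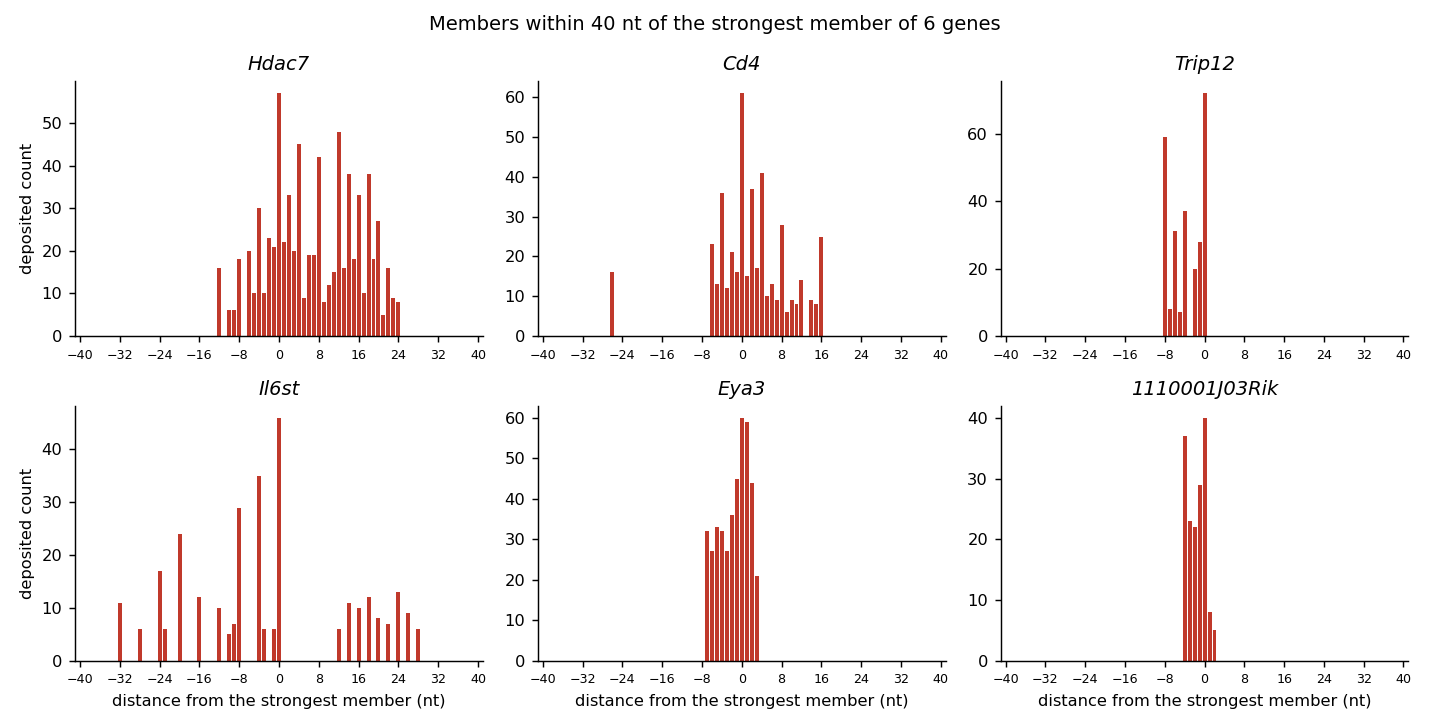
Deposited count of each member (bars, vertical axis) by its distance in nt from the strongest member (horizontal axis, 3′ to the right) in 6 genes; positions under 5 counts are not drawn. Peaks 4 nt apart stand in Hdac7, Cd4 and Il6st, whereas the 11 members of Eya3 and the 7 of 1110001J03Rik are next to each other.

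In Trip12, an E3 ubiquitin ligase gene, the 8 members of the repeat window held 262 counts, with 59, 37 and 72 at 8 and 4 nt upstream of the strongest member and at it. The strongest member was the third T of the last full copy, shortly before a TG repeat. Eya3 encodes a phosphatase and transcriptional coactivator, and its window chr4:132682355-132682435 on the plus strand held 11 adjacent members with counts of 32, 27, 33, 32, 27, 36, 45, 60, 59, 44 and 21. They covered the last C before a long T run and the first 10 T of it, and no later base of the run reached 5. Aptx, for aprataxin, a DNA strand break repair protein, had 13 adjacent members at a T run with 313 counts, 91.0% of all its intron counts.

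Some strong members stood nearly alone. Themis, whose product is a T cell adaptor needed for positive selection, had 84 of the 86 counts within 15 nt on 1 base, 31467 nt into an intron of 80557 nt. Rbfox3, a splicing factor gene known from neurons, had 60 of 65 counts on 1 base and a single neighbour. In Arhgap30 the member held 36 of 43 counts and in Stat5b 35 of 40. By contrast the member of Hdac7 held 57 of 591 counts within 15 nt and that of Cd4 61 of 412. Over all members the median share of the counts within 15 nt that fell on the member was 21.1% (20 to 22.7, a 95% interval from order statistics). It was 11.1% near tandem TTTA, 24.1% near other TATTTA, 17.2% near T runs, 26.3% near TG repeats, 77.8% near CTTT repeats and 50.6% for the rest. With 1 member per cluster or per gene the median was 50%.

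A total of 252 members (9.51%, 8.45 to 10.7) had no other listed position within 15 nt. The share was 68.2% (68.0 to 68.4) of all intron positions and 2.28% (1.61 to 3.22) of 3′ UTR positions with a count of 5 or more. TATTTA lay near 14.7% (10.8 to 19.6) of these 252 members and 10.7% of all intron positions, against 55.5% (53.5 to 57.5) of the 2399 members with a neighbour. Thymidine stood at 52.8% (46.6 to 58.9) of the solitary members and 77.4% (75.7 to 79.0) of the others. Joining members at most 50 nt apart gave 1328 clusters, of which 957 (72.1%) held 1 member and 111 held 5 or more. These 111 clusters contained 1011 members, and the largest had 35. The tandem TTTA class led 258 clusters and TATTTA outside it 227, whereas 520 clusters were led by a member with none of the patterns.

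Members concentrated in few genes. A member was found in 907 of 11503 genes with any intron position, 7.88%, and 532 of them had 1 member while 48 had 10 or more. The 20 genes with the highest summed count held 6667 counts, 29.3% of the total, and 15 of these 20 had at least 1 member with TATTTA near. In the other 5, Eya3, Aptx, 1110001J03Rik and Hnrnpa2b1 among them, no member had it. Over all 907 genes, 424 (46.7%) had a member near TATTTA and 256 (28.2%) one near the tandem repeat.

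**Figure D5:**
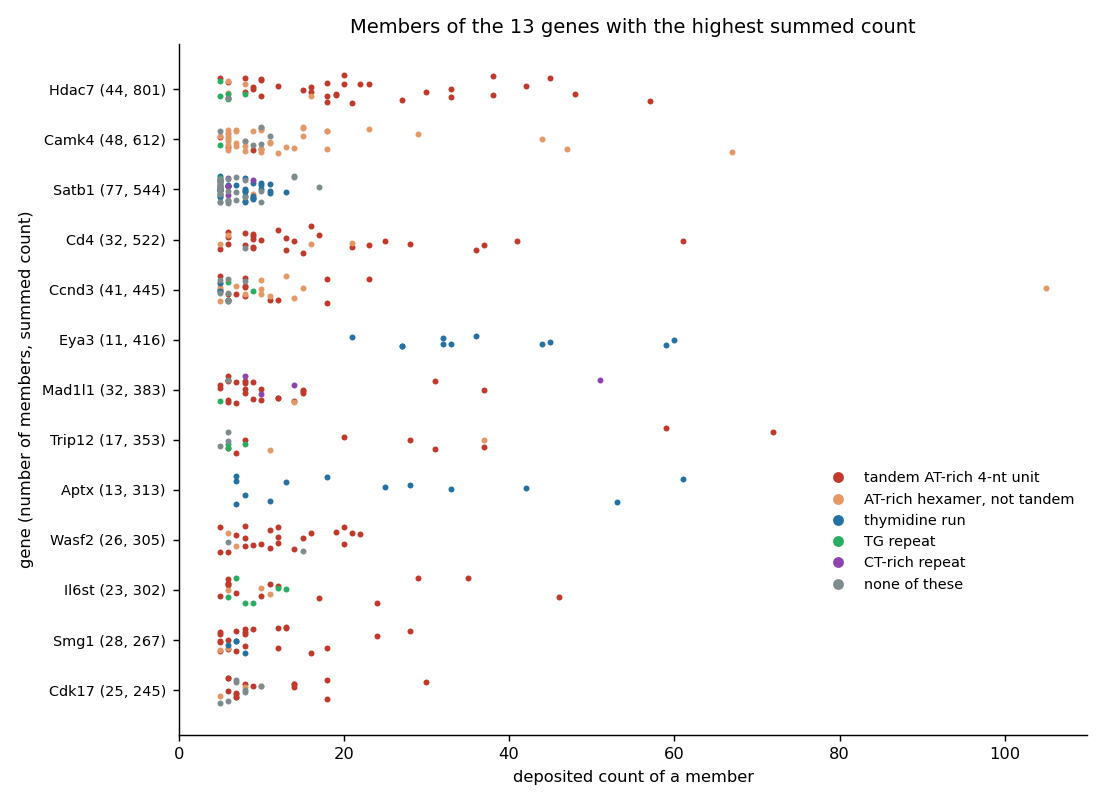
Deposited count of each member (points, horizontal axis) in the 13 genes with the highest summed member count (rows, with number of members and summed count), coloured by sequence class, where the AT-rich unit is TTTA and the hexamer TATTTA. Hdac7 leads with 801 counts over 44 members, Satb1 has 77 members of which none is above 17, and 1 position of Ccnd3 stands at 105.

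Among regulators of the T lineage, 16 of 28 transcription factors with an intron position had a member (57.1%, against 7.88% of all genes). This list and the gene lists below were chosen with earlier results of these data known. The 7.88% is over all genes with an intron position, whose median summed intron count was 10. The part of such coverage in the shares of the lists was not tested. Satb1, a chromatin organiser of thymocytes, had the most members of any gene, 77 in 32 clusters, with 544 counts and a highest of 17. Only 2 of the 77 had TATTTA near, and 39 were in the T run class. Ikzf1, encoding Ikaros, had 18 members with 153 counts, 10 of them near TATTTA, and Bcl11b, a T commitment factor, had 14 with 132 counts, 8 near TATTTA. Runx1 had 14 members with 126 counts, of which 7 lay near tandem TTTA. Mef2d, a transcription factor that binds class IIa deacetylases, had 20 members with 177 counts, and all 20 lay near tandem TTTA. Of 24 chromatin regulators listed with intron positions, 9 had a member (37.5%, against 7.88%): Hdac7 with 44 and 801 counts was followed by Kdm6a, a histone demethylase, with 5 and 42 counts, and Arid1b, a chromatin remodelling subunit, with 5 and 35.

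Of 35 genes of T cell receptor signalling, 17 had a member (48.6%, against 7.88% of all genes). Camk4, a calcium and calmodulin dependent kinase, had 48 members with 612 counts in 10 clusters. Of these members 41 lay near TATTTA but only 5 near a tandem repeat of 3 or more TTTA. Themis had 12 members with 162 counts, and Vav1, a guanine nucleotide exchange factor, had 14 with 116 counts, 11 of them near tandem TTTA. Of 18 genes that mark thymocyte stages, 8 had a member (44.4%, against the same 7.88%). Cd4 had 32 members with 522 counts, 63.2% of all counts in its introns, and 31 lay near TATTTA. Arpp21 had 11 members in 11 clusters with 66 counts, 1 of them near TATTTA, and Aqp11 had 2 with 22 counts. Cd8a, the other coreceptor, had 2 with 15 counts.

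In the cell cycle and DNA damage list 4 of 25 genes had a member (16%, against 7.88% of all genes). Ccnd3, the D-type cyclin that drives thymocyte expansion, had 41 members with 445 counts in 14 clusters, 28 of them near TATTTA. Rb1, the retinoblastoma gene, had 3 with 22 counts, and Nabp1, encoding a single-stranded DNA binding protein, 2 with 10. Genes for RNA-binding and decay factors had a member in 13 of 32 cases (40.6%, against 7.88%), led by the deadenylase complex genes Cnot2 with 5 members and 60 counts and Cnot6l with 7 and 56, then Celf1 with 5 and 30. Of 8 classical AU-rich mRNAs with any intron position, 1 had a member (12.5%, against 7.88%). That was Mcl1, a BCL2 family survival gene, with 5 members and 57 counts, none near TATTTA and all within 50 nt of the 3′ end of an intron. Of 14 hosts of intronic small RNAs, 2 had a member (14.3%, against 7.88%), Ncl with a count of 8 and Hspa8, a heat shock protein gene, with 6.

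Other genes among the 20 were mostly cell biological. Mad1l1, of the spindle checkpoint, had 32 members with 383 counts, and Wasf2, an actin regulator, 26 with 305. Smg1, a kinase of nonsense-mediated decay, had 28 members with 267 counts, 22 of them near tandem TTTA, and Cdk17 had 25 with 245. Zfp280d had 17 members with 148 counts, 15 near tandem TTTA. Hnrnpa2b1, a splicing regulator, had 20 members with 160 counts and none near TATTTA.

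Genes with a member had a median of 145 summed intron counts, against 9 in the other genes with intron positions. The first sum holds the members' own counts, so the choice of members fixes part of this difference, and without the members it was 129. A strong 3′ UTR position of 5 or more was found in 124 of 907 genes with a member, 13.7% (11.6 to 16.1), against 283 of 10596 others, 2.67% (2.38 to 2.995), and in 3.54% of all 11503. Any listed 3′ UTR position was present in 75.5% of the genes with a member, against 42.6% of the others. Transcript abundance was not measured in these libraries, and its part in both values was not tested.

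Against the annotation of GENCODE vM21, 2505 members (94.5%, 93.6 to 95.3) lay inside an intron of the named gene and 168 (6.34%, 5.47 to 7.33) inside an exon of some transcript on the same strand. Of these, 31 lay in a 3′ UTR of a coding transcript, 3 in a 5′ UTR and 2 in coding sequence. The shortest annotated intron around a member had a median length of 13736 nt, against 11014 nt at a count of 1 in all genes and 19112 nt at a count of 1 in the genes with a member. Members lay a median of 3691 nt from its 5′ end and 5729 nt from its 3′ end, against 5798 and 8253 nt at a count of 1 in the same genes. Within 50 nt of the 3′ end lay 191 of 2505 members, 7.62% (6.65 to 8.73), against 8.06% of all intron positions, 5.96% at a count of 1 and 4.38% (4.21 to 4.55) at a count of 1 in the same genes. In the last 20 nt lay 5.39% (4.57 to 6.34) of members, against 4.39% of all intron positions, 3.22% at a count of 1 and 2.30% at a count of 1 in the same genes. The share in the last 20 nt was 8.08% at a count of 3, 7.99% at 4 and 2.63% (1.57 to 4.36) at 10 or more. Within 50 nt of the 5′ end lay 28 members, 1.12%, against 2.86% of all intron positions.

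The 191 members near a 3′ splice site had other sequences than members as a whole. Of them 144 (75.4%, 68.8 to 81.0) matched none of the patterns, against 26.9% of all members. That share was close to the 72.4% (72.3 to 72.6) of all intron positions. A further 19 lay near a T run, 15 near tandem TTTA and 4 near other TATTTA. Satb1 had 12 of them with 103 counts, Mcl1 5 with 57, Nebl 7 with 53, Cdk17 7 with 51 and Srsf5, a splicing factor gene, 5 with 42. The strongest member of Satb1 stood 15 nt from the end of an intron of 2462 nt.

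Only 9 members lay in an annotated small RNA gene. Of these, 7 were the members of 1110001J03Rik, all in the tRNA gene n-TRcct1, an arginine tRNA. Their counts were 37, 23, 22, 29, 40, 8 and 5 on the adjacent bases in capitals above, at chr6:38533926-38534006 on the plus strand, and they made up 91.1% of the gene's intron counts. These bases, CTCCTAA, are the anticodon loop with the anticodon CCT. The others were 1 member of 15 counts in the tRNA gene n-TRacg3 within 1700064H15Rik and 1 of 8 counts in the microRNA gene mmu-mir-3535 within Ncl, which encodes nucleolin. Windows of 4 members, in Dab1, Kdm5a, Sltm and Wnt5b, aligned to the 390 annotated ribosomal RNA sequences of the reference. These hold only 420 nt of 28S, and likeness to the rest of 28S was not tested.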

How the data were processed

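The series holds 3 iCLIP libraries, 1 DCKO and 2 WT. Crosslink positions were taken from the single list the authors deposited, and the sources used here do not say which libraries entered it. The submitters' processing notes name Bowtie and the build GRCm38, without a version. Each row carries a whole number signed by strand, which the deposited header calls counts of unknown kind, and a sum within 15 nt; both were treated here as a score, and recomputing the sum gave the deposited score at 99.6% of the positions used. The deposited p-value and FDR columns were not used.

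Listed positions count from 0: where only the next base lay in a coding exon, 893 were labelled coding and 2 intron. Coordinates are given from 1. Windows of 41 nt and intron sequence came from RefSeq GRCm38.p6, and introns, exons and small RNA genes from GENCODE vM21 and RefSeq; the shortest intron of the named gene was used. Patterns were searched on the strand of the gene, TATTTA overlapping TTATTTATT and the TTTA repeat, and each member was assigned to the first of the classes tandem TTTA, other TATTTA, T run, TG repeat and CTTT repeat. Ribosomal likeness was an alignment by blastn 2.17.0 of at least 30 nt at 90% identity. Intervals are 95% Wilson intervals. The pattern search and the copy count were checked on simulated data.

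The members and gene lists were chosen with earlier results of these data known. Named are genes among the 20 with the highest summed count, up to 3 genes per list, and the 12 strongest positions, 1 per gene; genes named beside the 3′ splice site and the small RNAs were chosen after their values were seen, and some items are not reported here. No test was run, since the list gives no replicates. Other thresholds, windows, gene sets and masking were tried.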

Additional observations from a re-analysis of the deposited data

How the results depend on the processing

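The alternatives change the window or the set of positions, and no other cause of the shifts was tested. The share of members near TATTTA (51.6%) was 38.8% in a window of 10 nt and 67.4% in 50 nt, 43.3% at a count of 4 or more, 56.0% at 6 or more and 61.4% at 10 or more. It was 36.5% with 1 member per cluster, 39.6% with 1 per gene, 48.4% with the left-out genes put back, 20.4% outside soft-masked sequence and 44.5% where the next 30 nt were unique. The tandem TTTA share (35.5%; chosen after seeing the data, as was the restriction to unique 30 nt) was 26.4% in 10 nt, 50.7% in 50 nt, 26.2% at 4 or more, 38.7% at 6 or more, 43.1% at 10 or more, 19.4% per cluster, 22.3% per gene, 33.1% with the left-out genes, 0.939% outside soft-masked sequence and 24.5% with unique 30 nt. Thymidine at the member (75.1%) was 76.7% at 10 or more, 70.03% per cluster, 68.5% per gene, 71.3% with the left-out genes, 46.7% outside soft-masked sequence and 72.0% with unique 30 nt. The soft-masked share (83.9%) was 78.8% at 4 or more, 82.4% at 10 or more, 77.4% per cluster, 78.4% per gene, 78.4% with the left-out genes, 82.02% with these but without the gene of most members, and 76.0% with unique 30 nt. The share near 6 T (23.3%) was 17.96% in 10 nt, 31.8% in 50 nt, 21.4% at 10 or more, 21.8% with the left-out genes, 6.10% outside soft-masked sequence and 25.9% with unique 30 nt. The median share of nearby counts on the member (21.1%) was 34.7% within 5 nt, 16.3% within 50 nt, 33.3% at 4 or more, 19.2% at 6 or more, 17.4% at 10 or more, 50% per cluster or per gene, 19.4% with the left-out genes and 26.3% with unique 30 nt. Genes with a member numbered 1960 at 4 or more and 226 at 10 or more, against 907. Leaving out exon overlaps or the gene with the most members moved none of these shares, the median share included, beyond its interval. Leaving out windows like ribosomal RNA, run for the 5 shares other than the median, did not either. Without exon overlaps 867 genes had a member. No paired analysis was possible because the list holds no separate libraries. Depth per library is unknown, so positions under the threshold are not shown to be unbound.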

Other observations

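A few strong members stood in genes known mainly from other tissues, and they were picked out after their values were seen. Vmn2r7, a vomeronasal receptor gene, had 9 members with 118 counts at chr3:64725724-64725733 on the minus strand. All 9 lay near a tandem TTTA repeat, and together they made up 90.1% of the gene's intron counts. Rbfox3 had 2 members that held 65 of its 70 intron counts, 92.9%. Erbb4, a receptor tyrosine kinase gene, had 1 member of 40 counts beside a TG repeat, 90.9% of its intron counts over 5 listed positions. Among genes without TATTTA near any member, Tcte2 had 8 members with 126 counts and Spag9 had 7 with 119, all in the T run class. Kpna1 had 8 members with 83 counts and Kcnip1 had 4 with 43, and they matched none of the patterns; likeness to the part of 28S absent from the reference used here was not tested.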
